A study of Mus musculus with 6 samples.

Results

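The 9 genes described here, S100a8, S100a9, Retnlg, Csf3r, Cxcr2, Mmp8, Mmp9, Ngp and Il1b, are transcripts of the neutrophil, measured in whole liver. They are the rows of the count table that carry these gene symbols, 9 of 54532 genes, and each symbol occurred once. They were chosen by their read counts in these 6 libraries, and the spread of those counts within IR vehicle, so levels and differences of these 9 genes are given as a description, with errors and without a test. The study asked which hepatic transcripts respond to insulin during insulin resistance (IR). Male C57BL/6J mice were fed a high-fat diet from 8 weeks of age for 6 weeks, fasted for 16 h and given an intraperitoneal injection of insulin (0.75 units per kg; IR insulin, n = 3) or of bovine serum albumin, its vehicle (IR vehicle, n = 3). Livers were taken 6 h after the injection. All 6 mice shared the diet and the fast. No chow-fed or untreated group is analysed here, and whether the livers were flushed of blood was not stated. Each library came from 1 mouse.

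Neutrophils are short-lived granulocytes that form in the bone marrow and circulate in the blood. They make the proteins of their granules while they mature, so that messenger RNA for the early, azurophil granules is largely gone from cells in the circulation, whereas S100a8, S100a9 and the receptors for granulocyte colony-stimulating factor and CXC chemokines are transcribed in mature cells. In liver, neutrophils sit in the sinusoids among hepatocytes, endothelial cells and the resident macrophages, the Kupffer cells. In bulk RNA from a whole organ, fewer cells of a type and less RNA per cell cannot be told apart.

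The promoter sequences of 7 of the genes are shown here because S100a8, S100a9, Retnlg, Csf3r, Cxcr2 and Mmp8 varied together over the libraries and Il1b did not. For S100a8 this rested largely on vehicle replicate 3 (r of 0.91 with the other genes, and 0.54 without that library). Whether the promoters have a part in it was not tested. Promoter windows were the 250 bases before the RefSeq start (GRCm38.p6), which were available for 8 of the 9 genes. Capitals mark matches, on either strand, to the core of a C/EBP site (TTNNGNAA), to the core of a PU.1 site (GAGGAA) and to the TATA box (TATAAA). C/EBP proteins and PU.1 are transcription factors of the myeloid lineage. Sequences run 5′ to 3′ on the gene's own strand. Those of S100a8, Csf3r and Cxcr2 stop where the annotated first exon of GENCODE begins, and so leave out the last 93, 109 and 5 bases of their windows.

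S100a8 (plus strand, chr3:90668821-90668977): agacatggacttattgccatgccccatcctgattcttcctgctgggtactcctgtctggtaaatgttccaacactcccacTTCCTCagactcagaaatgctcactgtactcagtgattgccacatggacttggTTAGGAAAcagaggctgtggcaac
S100a9 (minus strand, chr3:90695722-90695971): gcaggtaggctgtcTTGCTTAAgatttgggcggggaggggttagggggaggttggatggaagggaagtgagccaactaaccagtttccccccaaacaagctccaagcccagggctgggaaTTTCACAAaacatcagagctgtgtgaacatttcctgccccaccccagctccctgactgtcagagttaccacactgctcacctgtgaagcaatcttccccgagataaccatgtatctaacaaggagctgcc
Retnlg (plus strand, chr16:48872358-48872607): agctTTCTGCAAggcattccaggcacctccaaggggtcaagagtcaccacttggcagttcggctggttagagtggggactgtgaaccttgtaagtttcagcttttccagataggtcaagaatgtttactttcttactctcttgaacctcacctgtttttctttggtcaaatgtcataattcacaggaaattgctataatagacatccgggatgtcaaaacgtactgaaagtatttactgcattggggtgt
Csf3r (plus strand, chr4:126024409-126024549): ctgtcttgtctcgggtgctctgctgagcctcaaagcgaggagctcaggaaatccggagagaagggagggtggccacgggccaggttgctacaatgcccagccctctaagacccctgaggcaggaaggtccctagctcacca
Cxcr2 (plus strand, chr1:74153744-74153988): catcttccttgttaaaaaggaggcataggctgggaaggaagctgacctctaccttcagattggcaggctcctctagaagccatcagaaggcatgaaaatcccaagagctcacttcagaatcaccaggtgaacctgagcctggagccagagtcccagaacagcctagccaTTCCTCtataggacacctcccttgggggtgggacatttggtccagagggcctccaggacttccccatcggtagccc
Mmp8 (plus strand, chr9:7558179-7558428): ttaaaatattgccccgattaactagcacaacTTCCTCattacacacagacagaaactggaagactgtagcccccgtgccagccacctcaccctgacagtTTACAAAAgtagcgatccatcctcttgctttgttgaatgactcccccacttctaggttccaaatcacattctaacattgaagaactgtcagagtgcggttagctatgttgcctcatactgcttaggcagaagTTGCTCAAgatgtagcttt
Il1b (minus strand, chr2:129371140-129371389): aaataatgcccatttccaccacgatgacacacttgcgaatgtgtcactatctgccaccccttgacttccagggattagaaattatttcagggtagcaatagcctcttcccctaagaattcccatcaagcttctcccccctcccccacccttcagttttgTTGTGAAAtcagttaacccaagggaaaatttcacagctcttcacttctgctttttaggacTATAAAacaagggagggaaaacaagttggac

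The C/EBP core was found in 6 of the 8 windows, those of Csf3r and Cxcr2 being the exceptions, and in 36.8% of 32851 promoter windows of the same length. PU.1 cores were found in S100a8, Csf3r (in the part not printed), Cxcr2 and Mmp8, 4 of the 8, against 23.3% of all windows, and both cores in the windows of S100a8 and Mmp8, against 8.87%. The TATA box lay 30 to 25 bases before the start in S100a8, in the part not printed, and 31 to 26 bases before it in Il1b, and 12.4% of all windows held it. In S100a8 that box directly followed a second PU.1 core, 36 to 31 bases before the start, without overlap. Il1b, whose levels ran apart from the other genes, held a C/EBP core as well. A match is a match of letters only.

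Library totals ran from 18449986 to 21827619 counts. Levels are given as CPM, counts relative to the library's total after adjustment by TMM (trimmed mean of M-values), where 1 count came to between 0.0433 and 0.0613 CPM. The vehicle libraries were less alike than the insulin libraries, with correlations across genes (Pearson's r of log2 CPM, genes not being independent replicates) of 0.878 to 0.948 against 0.980 to 0.985. In vehicle replicate 2, genes deviated from the other libraries by their GC content, by −1.13 log2 units for each 10 percentage points of GC. That slope was −0.064 to 0.19 in the other 5 libraries. Vehicle replicate 3 is the library that most results below turn on. It carried no such slope, and its total of 21614773 counts was the highest in its group. Across genes it stood apart as well, with r of 0.948 with vehicle replicate 1 and 0.951 to 0.954 with the insulin libraries. Vehicle replicate 1 had r of 0.982 to 0.988 with the insulin libraries. Vehicle replicate 2 stood further apart than vehicle replicate 3, with r of 0.906 to 0.912 with the insulin libraries. Of the 13377 genes tested, 23.8% were lowest and 23.4% highest of the 6 libraries in vehicle replicate 3.

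Neutrophil transcripts were low in 1 vehicle liver and within a few-fold of one another in the other 5. The sum over the 9 genes was 58.6, 85.4 and 11.5 CPM in vehicle replicates 1, 2 and 3 and 83.4, 40.0 and 38.1 CPM in insulin replicates 1, 2 and 3. The groups overlapped, with vehicle replicate 3 below all other libraries. Vehicle replicate 2 had the highest sum through S100a8, which gave 50.3 of its 85.4 CPM, and was highest for that gene only. Of the 8 genes that passed the filter on low counts (all but Ngp), 7 were lowest of the 6 libraries in vehicle replicate 3, as were 23.8% of the 13377 genes that passed. The exception was Il1b. With vehicle replicate 2 set aside, vehicle replicate 3 was again lowest for 7 of the 8, and for 33.2% of all genes that passed.

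**Figure D1:**
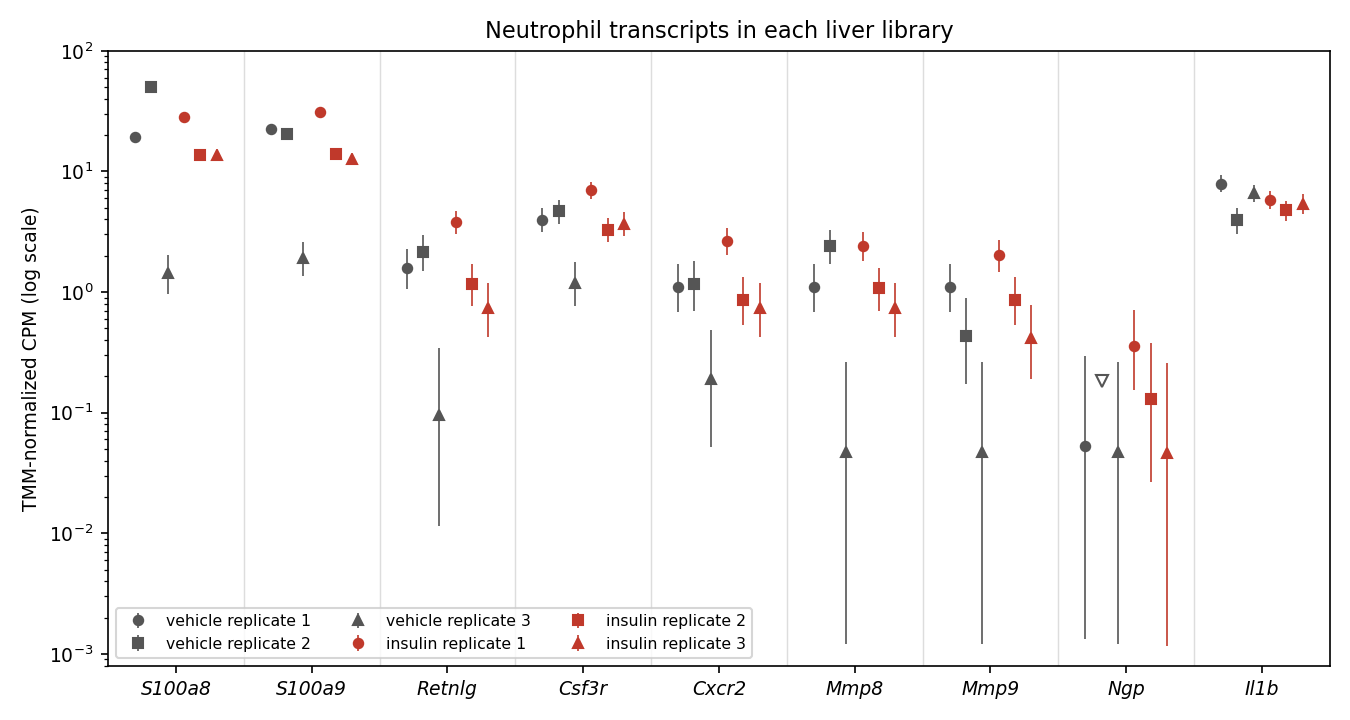
Level of each of the 9 genes in each library, in TMM-normalized CPM on a log axis. Grey symbols are the 3 IR vehicle and red symbols the 3 IR insulin libraries, bars are exact 95% Poisson intervals of the count, which cover counting error only, and the open triangle marks the level of 3 counts for a count of 0. Vehicle replicate 3 (grey triangles) lies below the other libraries for S100a8 through Mmp9, between 0.0476 and 1.91 CPM, and not for Il1b, at 6.58 CPM.

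S100a8 and S100a9 encode the 2 chains of calprotectin, the calcium-binding protein that fills the neutrophil cytosol and acts as an alarmin once released; monocytes express both as well. The genes lie close together on chromosome 3 (S100a8, ENSMUSG00000056054, chr3:90668978-90670035, plus strand; S100a9, ENSMUSG00000056071, chr3:90692632-90695721, minus strand; GRCm38). Counts of S100a8 were 362, 820 and 30 in vehicle replicates 1, 2 and 3 and 633, 318 and 297 in the insulin libraries, or 19.1, 50.3 and 1.43 CPM against 28.5, 13.8 and 13.7 CPM. The vehicle group held both the highest and the lowest library, and all insulin libraries lay between them. Its vehicle mean was 23.6 ± 24.7 CPM and its insulin mean 18.6 ± 8.52 CPM (SD, n = 3). The fitted log2 fold change, insulin minus vehicle, was −0.34 ± 0.93 (SE), whereas the difference between the group means of log2 CPM was 0.63, of the opposite sign.

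S100a9 stood at 22.6, 20.4 and 1.91 CPM in the vehicle and 30.8, 14.1 and 12.7 CPM in the insulin libraries. Vehicle replicate 3 was again lowest, here with insulin replicate 1 highest. The means were 14.98 ± 11.4 and 19.2 ± 10.1 CPM, and the log2 fold change was 0.36 ± 0.76. Per kb of transcript, both genes exceeded all other members, at 42.4 CPM per kb for S100a8 and 32.9 for S100a9 as means over the 6 libraries, and Il1b followed at 4.23. The count ratio of S100a8 to S100a9 within a library was 0.846, 0.750, 0.924, 0.978 and 1.08 in vehicle replicates 1 and 3 and insulin replicates 1, 2 and 3, respectively. In vehicle replicate 2 it was 2.46 (exact 95% interval 2.17 to 2.81, counting error only), so the top value of S100a8 in that library was not shared by S100a9. The 2 transcripts differ little in GC content (44.2 and 45.1%), and after the GC offset their levels in vehicle replicate 2 were 38.5 and 16.4 CPM.

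Granule proteins were represented by Mmp8, Mmp9 and Ngp. Mmp8 encodes the neutrophil collagenase, stored in specific granules (ENSMUSG00000005800, chr9:7558456-7568485, plus strand). It had 21, 39 and 1 counts in the vehicle and 54, 25 and 16 in the insulin libraries, which came to 1.11, 2.39 and 0.0476 CPM and to 2.43, 1.08 and 0.737 CPM. Vehicle replicate 3 had a single count, and the other 2 vehicle libraries lay within the range of the insulin libraries. Mean levels were 1.18 ± 1.17 and 1.42 ± 0.894 CPM, with a log2 fold change of 0.28 ± 0.96.

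Mmp9 encodes gelatinase B, of the gelatinase granules, and is also made by macrophages (ENSMUSG00000017737, chr2:164940780-164955850, plus strand). Its counts were 21, 7 and 1 in the vehicle and 45, 20 and 9 in the insulin libraries, or 1.11, 0.429 and 0.0476 CPM against 2.02, 0.865 and 0.415 CPM. Insulin replicate 1 was highest and vehicle replicate 3 lowest, while vehicle replicate 2 and insulin replicate 3 were nearly level. It had the largest fitted difference of the 8 genes, a log2 fold change of 1.06 ± 0.93, from 0.529 ± 0.538 to 1.10 ± 0.830 CPM. At 55.2% GC it is also the most GC-rich of the 9, and GC-rich genes ran low in vehicle replicate 2. With the GC offset and a prior count of 2, its level was 0.863 CPM there and 0.131 CPM in vehicle replicate 3.

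Ngp encodes neutrophilic granule protein, transcribed mainly in marrow precursors (ENSMUSG00000032484, chr9:110419747-110423012, plus strand). It had 1, 0 and 1 counts in the vehicle and 8, 3 and 1 in the insulin libraries and was left out by the filter. The count of 0 in vehicle replicate 2 allows up to 0.184 CPM (3 counts, a one-sided limit), for counting error only. No difference between the groups can be read at this depth.

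Receptors were represented by Csf3r and Cxcr2. Csf3r encodes the receptor for granulocyte colony-stimulating factor, which drives neutrophil production (ENSMUSG00000028859, chr4:126024550-126044440, plus strand). Its levels were 3.96, 4.66 and 1.19 CPM in the vehicle and 7.02, 3.29 and 3.69 CPM in the insulin libraries. Here too vehicle replicate 3 was lowest and insulin replicate 1 highest, and the other 4 libraries lay between 3.29 and 4.66 CPM. Group means were 3.27 ± 1.84 and 4.66 ± 2.05 CPM, with a log2 fold change of 0.52 ± 0.54.

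Cxcr2 encodes the chemokine receptor through which neutrophils leave the marrow and enter inflamed tissue (ENSMUSG00000026180, chr1:74153989-74161246, plus strand). Vehicle libraries had 21, 19 and 4 counts and insulin libraries 59, 20 and 16, that is 1.11, 1.17 and 0.191 CPM and 2.65, 0.865 and 0.737 CPM. The libraries at both ends were those of Csf3r. Means were 0.822 ± 0.547 and 1.42 ± 1.07 CPM, and the log2 fold change was 0.80 ± 0.76.

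Secreted products were represented by Retnlg and Il1b. Retnlg encodes resistin-like gamma, a small cysteine-rich protein of mouse granulocytes (ENSMUSG00000022651, chr16:48872621-48874496, plus strand). It was at 1.58, 2.15 and 0.0953 CPM in the vehicle libraries, the last from 2 counts, and at 3.78, 1.17 and 0.737 CPM in the insulin libraries. As for S100a9, it was low in vehicle replicate 3 and high in insulin replicate 1. Means were 1.28 ± 1.06 and 1.89 ± 1.65 CPM, and the log2 fold change was 0.59 ± 0.94.

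Il1b encodes interleukin 1 beta, an inflammatory cytokine that neutrophils share with monocytes and Kupffer cells (ENSMUSG00000027398, chr2:129364570-129371139, minus strand). It overlaps Il1bos on the opposite strand, and since the use of strand in counting was not stated, its counts are uncertain. It stood at 7.92, 3.93 and 6.58 CPM in the vehicle and 5.85, 4.76 and 5.39 CPM in the insulin libraries. Unlike the other 7 genes that passed the filter, it was lowest in vehicle replicate 2, as were 37.3% of all genes tested, and vehicle replicate 3 was second highest of all. The group means were 6.14 ± 2.03 and 5.33 ± 0.547 CPM, with a log2 fold change of −0.21 ± 0.32.

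The spread within the vehicle group was wider than the difference between the groups for all 8 genes that passed the filter, a count near the background, since it also held for 94.9% of all genes tested. On the log2 CPM scale (prior count 2), the median distance from the lowest to the highest vehicle library was 3.28 over the 8 genes and 0.988 over all genes tested. Among the insulin libraries it was 1.44 over the 8 genes and 0.348 over all genes. The difference of group means had a median of 0.80 over the 8 genes and ran from −0.15 (Il1b) to 1.17 (Mmp9). With 1 vehicle library left out, the range is that between 2 libraries. Without vehicle replicate 3, its median was 0.706 over the 8 genes and 0.661 over all genes. Without vehicle replicate 1 the medians were 2.74 and 0.802, and without vehicle replicate 2 they were 3.06 and 0.375.

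**Figure D2:**
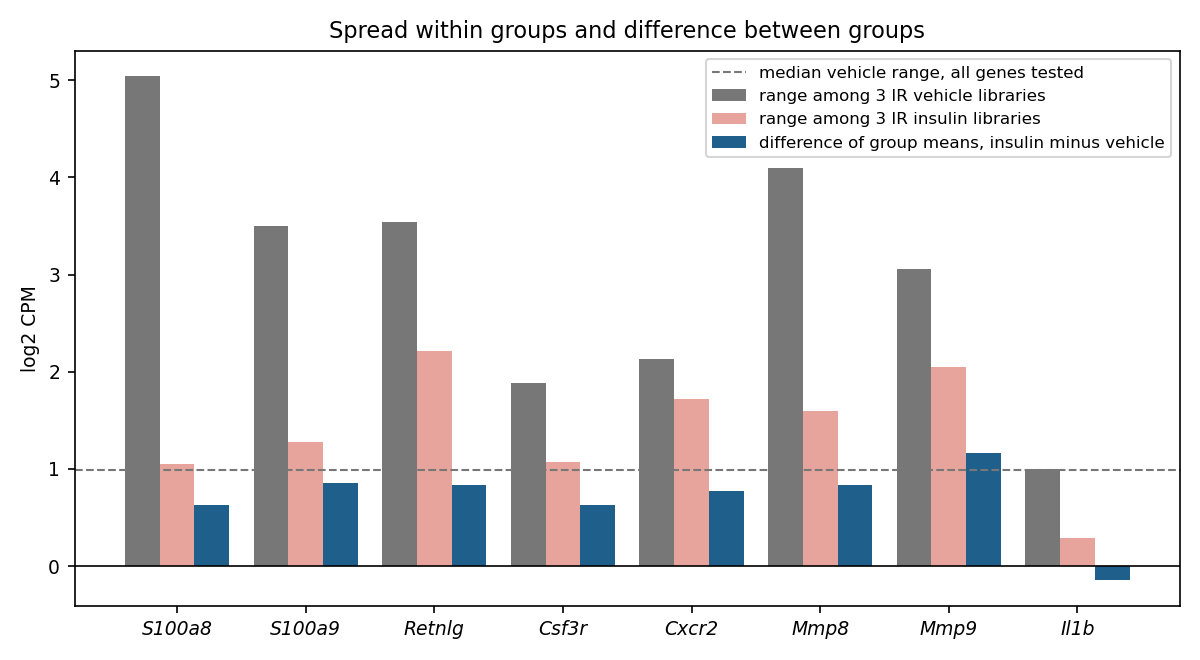
Highest minus lowest log2 CPM among the 3 IR vehicle libraries (grey) and the 3 IR insulin libraries (pink), beside the difference of group means, insulin minus vehicle (blue), for the 8 genes that passed the filter. The dashed line is the median vehicle range of all genes tested, 0.988. For each gene both ranges exceed the size of the difference, and the vehicle range is widest for S100a8, at 5.04.

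As ratios of CPM, the highest vehicle library exceeded the lowest by 35.2 times for S100a8 (exact 95% interval 24.5 to 52.5), 11.9 times for S100a9 (8.57 to 16.8) and 3.91 times for Csf3r (2.46 to 6.42). Counting error alone left wide intervals where vehicle replicate 3 had 1 to 4 counts. For Mmp8 the ratio was 50.2 with an interval of 8.49 to 2033, for Mmp9 23.3 (3.74 to 963), for Retnlg 22.5 (5.79 to 193) and for Cxcr2 6.11 (2.03 to 24.7). The corresponding ratios among the insulin libraries ran from 2.08 for S100a8 to 5.12 for Retnlg. Il1b had the narrowest range in both groups, 2.02 times (1.497 to 2.75) in the vehicle and 1.23 times (0.946 to 1.60) in the insulin group, the last interval including equality.

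No gene of the 8 separated the groups, a count near the background, since only 12.3% of all genes tested did. Log2 fold changes were above 0 for 6 of the 8, against 48.6% of all genes, with a median of 0.44 over the 8 and −0.017 over all genes. That median rested on single libraries. It was −0.066 without vehicle replicate 3 and −0.21 without insulin replicate 1. The ratio of mean CPM, insulin over vehicle, changed likewise when vehicle replicate 3 was left out, from 1.28 to 0.891 for S100a9, from 1.49 to 1.02 for Retnlg, from 1.197 to 0.809 for Mmp8 and from 0.789 to 0.537 for S100a8. It stayed above 1 for Csf3r (1.43 and 1.08), Cxcr2 (1.73 and 1.25) and Mmp9 (2.08 and 1.43). Insulin replicate 1 was the highest insulin library for all 8 genes and the highest of all 6 for 6 of them, against 11.6% of all genes tested. The other 2 peaked in the vehicle group, S100a8 in replicate 2 (35.8% of all genes) and Il1b in replicate 1 (6.44%).

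Over the 6 libraries, 7 of the 8 genes varied together. Pearson's r of a gene's log2 CPM with the mean of the other genes was 0.99 for S100a9 and Retnlg, 0.98 for Csf3r, 0.97 for Cxcr2 and Mmp8, 0.91 for S100a8 and 0.89 for Mmp9. Il1b had an r of −0.27. Without vehicle replicate 3, r stayed at 0.90 or above for S100a9, Retnlg, Cxcr2 and Csf3r, was 0.82 for Mmp8, and dropped to 0.60 for Mmp9 and 0.54 for S100a8. These correlations describe 6 libraries that share their depth and scaling among genes, and no p is given for them.

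Among the genes outside the set whose log2 CPM was most like the mean of the 8 that passed the filter, over the 6 libraries, of 12164 candidates with a mean of at least 1 CPM, were Ddx28 (r = 0.982), Luc7l3 (0.982), Slamf9 (0.981), Galnt7 (0.980), Rab3gap1 (0.980), Btg3 (0.978) and Scara5 (0.975). Slamf9, an immune receptor gene, had the lowest levels of these, namely 0.524 CPM in vehicle replicate 3 and between 1.73 and 4.45 CPM in the others. These genes were picked as the highest r of 12164, each over 6 libraries only, so high values are given by the choice. Without vehicle replicate 3, r of the named genes ran from 0.855 (Scara5) to 0.970 (Luc7l3). Luc7l3 varied little in size, from 30.1 to 46.6 CPM.

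The genes with low values in vehicle replicate 3 lay at both ends of the GC range of the set. The 9 transcripts held 43.4 to 55.2% GC. Vehicle replicate 3 fell short of the other libraries for Mmp8, S100a8 and S100a9, at 43.4, 44.2 and 45.1% GC, and also for Csf3r and Mmp9, at 54.2 and 55.2%. With a GC offset, the median vehicle range of the 8 genes was 3.20, and 0.775 over all genes tested.

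**Figure D3:**
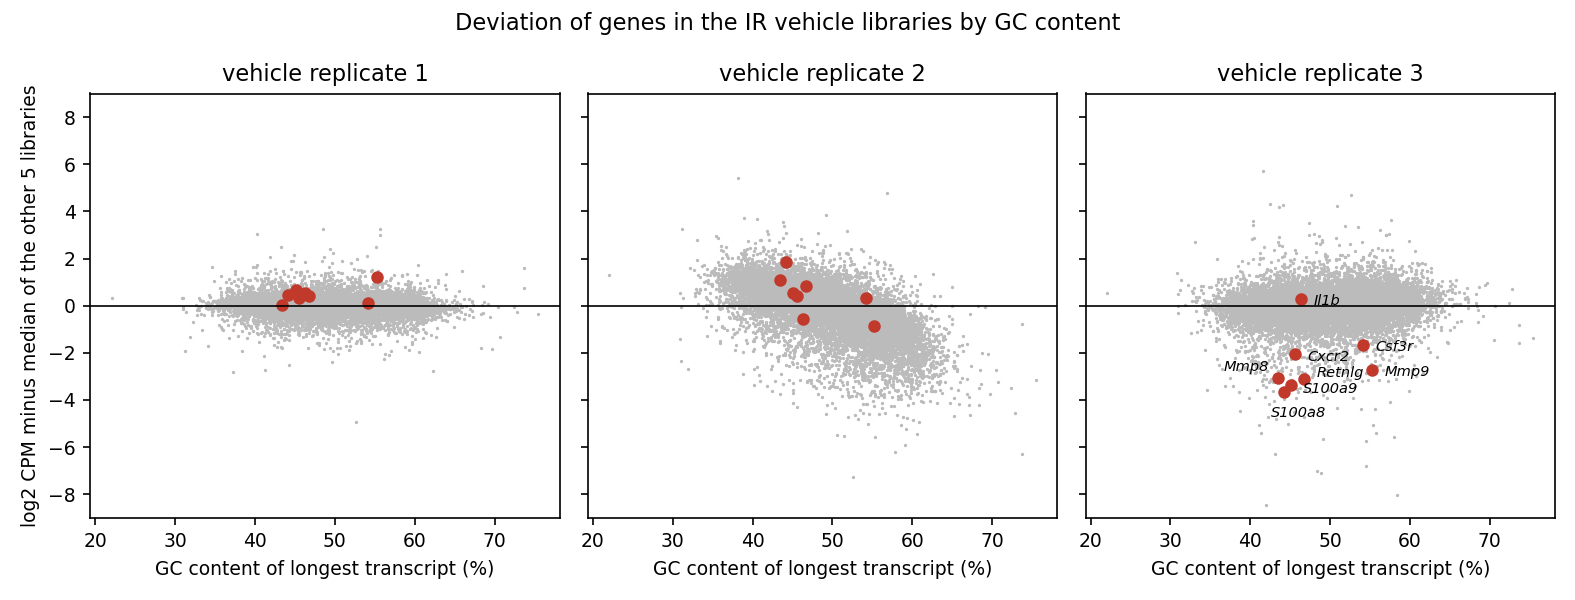
Deviation of each gene in a vehicle library, as log2 CPM less the median over the other 5 libraries, against the GC content of its longest transcript in percent. Grey dots are the genes tested and red dots the 8 neutrophil genes that passed the filter. Replicate 2 slopes downward by 1.13 per 10 points of GC, whereas in replicate 3 the cloud is level and 7 of the red dots lie below it or at its lower edge.

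Other genes of neutrophil biology, none of them among the 9, were read from the same fit in 8 lists of 86 genes, of which 52 passed the filter. The lists include ligands, adhesion genes and interleukin 1 genes that other liver cells transcribe too. Like the 9 genes, the lists were chosen with earlier results of these data known. In that fit (the quasi-likelihood F test of edgeR, with p adjusted by Benjamini-Hochberg over the 13377 genes) 0 genes (0%) had an adjusted p under 0.05, and 0.852 was the lowest reached. DESeq2 and limma-voom likewise gave 0 genes. The study's criteria, a log2 fold change of at least 0.35 in size with p under 0.05 before adjustment, were met by 383 genes, which were all genes at such a p. That was 2.86% of all genes tested, 134 of them higher (1%) and 249 lower (1.86%) with insulin. Of the 52 genes of the lists, 2 met these criteria, or 3.85%. Ptafr, the receptor for platelet-activating factor, was higher with insulin by 0.96 ± 0.41 on the log2 scale (unadjusted p = 0.0471, adjusted p = 0.852, edgeR), and Il1rap, the accessory chain of the interleukin 1 receptor, was lower, at −0.69 ± 0.30 (unadjusted p = 0.0499, adjusted p = 0.852, edgeR). Ptafr was at 1.32, 0.675 and 0.953 CPM in the vehicle and 2.07, 2.08 and 1.61 CPM in the insulin libraries, which did not overlap. Adjusted p values of Ptafr ran from 0.506 to 0.9997 and those of Il1rap from 0.500 to 0.9997 over the alternative settings. Il1rap was at 132, 269 and 185 CPM against 121, 136 and 107 CPM, which overlapped.

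The count rested on which libraries entered. Without vehicle replicate 1, 12 of 53 genes of the lists met the criteria, as did 9.81% of all genes tested in that fit. Of the 12, 11 were higher with insulin, Lcn2, Tnf and Itgb2 among them, and 1 was lower (Il1rap). Adjusted p values were 0.47 to 0.51 for these 4 (edgeR). Without insulin replicates 1, 2 or 3, none of the lists' genes met the criteria, where 0.727, 1.05 and 0.875% of all genes passed. Without vehicle replicate 2 there were 2 of 55 (Cxcl1 and Hdc, both lower), beside 3.69% of all genes. Without vehicle replicate 3 there were 3 of 53, beside 6.51% of all genes (Chil3 and Clec4e lower, Prtn3 higher), each at an adjusted p of 0.527 (edgeR).

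**Figure D4:**
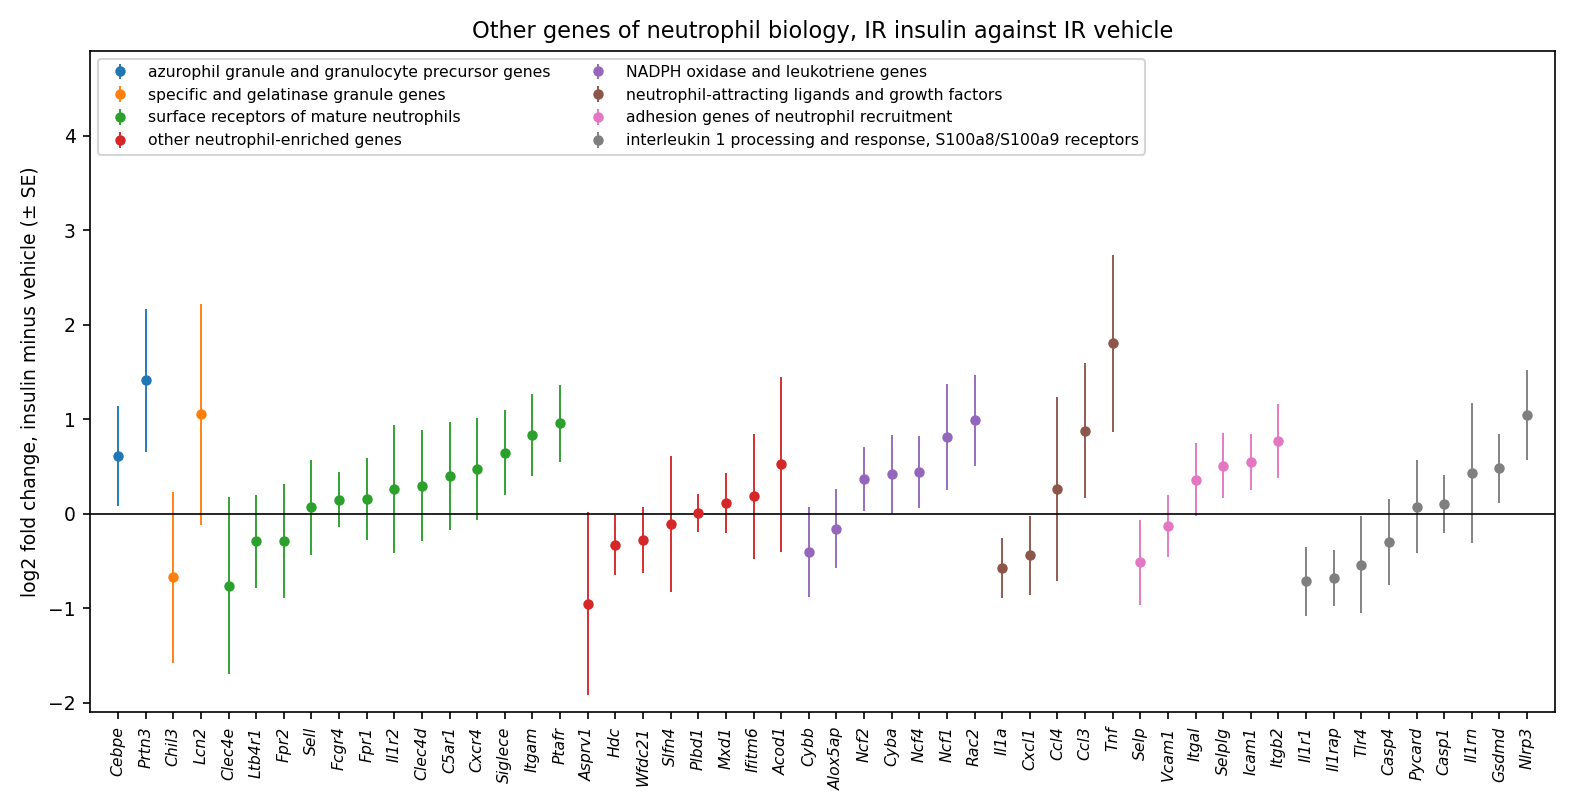
Log2 fold change, insulin minus vehicle, with its SE, of the 52 genes of the 8 lists that passed the filter. Genes are coloured by list and ordered by value within a list. Estimates above 0 number 34 of 52, beside 48.6% of all genes tested. The errors are wide, and the only genes at an unadjusted p under 0.05 are Ptafr and Il1rap.

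Of 8 genes of azurophil granules and granulocyte precursors, Cebpe and Prtn3 passed the filter and 6 did not. Mpo, myeloperoxidase of the azurophil granules, had 2 counts in insulin replicate 2 and none in the other libraries. Elane, neutrophil elastase, had 9, 0 and 6 counts in the vehicle and 8, 10 and 2 in the insulin libraries and did not pass the filter. Ms4a3 and Fcnb, markers of precursors, were at 0 in all 6 libraries. Cebpe, a transcription factor of granulocyte maturation, and Prtn3, proteinase 3, had log2 fold changes of 0.61 ± 0.53 and 1.41 ± 0.76 that did not meet the criteria. Cebpe was at 6.97, 1.41 and 5.72 CPM in the vehicle and 5.98, 6.36 and 9.22 CPM in the insulin libraries, lowest in vehicle replicate 2, the library that ran low in GC-rich genes (Cebpe has 61.5% GC). The list's sum was likewise lowest there, at 1.47 CPM against 7.10 to 10.1 CPM.

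Some defining markers of neutrophils had few counts as well. Ly6g, the surface antigen by which mouse neutrophils are usually sorted, had 2, 0 and 0 counts in the vehicle and 8, 3 and 3 in the insulin libraries. Ltf (lactoferrin) and Camp (cathelicidin), of the specific granules, had at most 4 and 3 counts in any library. Ly6g, Mpo, Ltf and Camp are named here after their values were seen. The name neutrophil transcripts therefore rests on S100a8, S100a9, Csf3r, Cxcr2, Retnlg and Mmp8, and these defining markers add little to it at this depth.

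Of the specific and gelatinase granule list, only Lcn2 and Chil3 passed the filter, and both were lowest in vehicle replicate 3. Lcn2 encodes lipocalin 2, an iron-scavenging protein of specific granules that hepatocytes also secrete in the acute phase. It had 37125, 2931 and 562 counts in the vehicle and 29641, 33286 and 37172 in the insulin libraries, so that vehicle replicates 2 and 3 lay below the other 4. Its log2 fold change was 1.05 ± 1.17 (unadjusted p = 0.397, adjusted p = 0.855, edgeR). Chil3, a chitinase-like protein of neutrophils and macrophages, was at 2.22, 6.56 and 0.191 CPM in the vehicle and 2.02, 1.56 and 1.98 CPM in the insulin libraries, and so held its highest and lowest values within the vehicle group, as S100a8 did. Pglyrp1, the next by mean level, had 1 to 18 counts and did not pass.

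Surface receptors of mature neutrophils gave 13 genes past the filter of 17, of which 8 were lowest in vehicle replicate 3 and none was highest there, beside 23.4% of all genes tested. Fpr2 and Fpr1 encode formyl peptide receptors, which sense bacterial and mitochondrial peptides. Fpr2 was at 14.7, 26.5 and 3.57 CPM in the vehicle and 14.6, 12.8 and 9.17 CPM in the insulin libraries, and it overlaps Fpr3 on the same strand, so its counts are uncertain. Fpr1 was at 11.0, 9.38 and 4.24 CPM against 12.2, 9.82 and 5.30 CPM. Both were lowest in vehicle replicate 3. Fcgr4, an Fc receptor shared with macrophages, ranged less, from 11.1 CPM in vehicle replicate 3 to 13.6 CPM in replicate 1, with 10.8 to 19.3 CPM in the insulin libraries. The list summed to 69.8, 72.6 and 28.9 CPM in the vehicle and 82.4, 59.0 and 46.5 CPM in the insulin libraries, with vehicle replicate 3 again lowest.

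Of 15 other neutrophil-enriched genes, 8 passed the filter and 5 of these were lowest in vehicle replicate 3, whereas 2 were highest there. Stfa2 and Stfa3 were at 0 in all libraries. The most abundant was Wfdc21, at 557, 1123 and 484 CPM in the vehicle and 589, 581 and 615 CPM in the insulin libraries, high in vehicle replicate 2. Plbd1 hardly varied, at 52.1 to 61.1 CPM over all 6 libraries. Hdc, histidine decarboxylase, was highest in vehicle replicate 3, at 13.4 CPM against 6.44 to 10.6 CPM elsewhere.

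The NADPH oxidase makes the oxidative burst of neutrophils and macrophages. Of its list, which includes leukotriene genes, 7 of 8 passed the filter. Vehicle replicate 3 was lowest for 1 of the 7 and vehicle replicate 2 for 4. Cybb, the catalytic subunit, was at 23.9, 60.8 and 15.1 CPM in the vehicle and 29.1, 22.5 and 23.6 CPM in the insulin libraries. Its partner Cyba was at 15.3, 4.85 and 12.9 CPM against 18.5, 12.3 and 13.4 CPM, and Rac2, the GTPase that activates the complex, at 17.0, 4.85 and 8.29 CPM against 29.5, 16.0 and 14.3 CPM. Cybb (42.4% GC) was thus highest in vehicle replicate 2 and Cyba (59.3%) and Rac2 (52.8%) lowest, and insulin replicate 1 was the highest insulin library for all 3.

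Ligands that attract neutrophils, with growth factors and cytokines, gave 5 genes past the filter of 12, and Csf2 and Il17a were at 0 in all libraries. Cxcl1, a ligand of Cxcr2, was at 6.34, 2.45 and 6.10 CPM in the vehicle and 2.65, 3.85 and 4.47 CPM in the insulin libraries. Vehicle replicate 3 was thus among the higher libraries for this ligand while being lowest for its receptor. Il1a, interleukin 1 alpha, was at 4.38, 6.62 and 4.05 CPM against 3.06, 3.11 and 3.92 CPM, groups that did not overlap, with a log2 fold change of −0.58 ± 0.32 (unadjusted p = 0.108, adjusted p = 0.852, edgeR). Ccl4 had between 2 and 39 counts.

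Adhesion genes gave 6 past the filter of 7, of which 4 were lowest in vehicle replicate 3. Icam1 and Vcam1 are endothelial ligands of leukocyte integrins, and Itgal is an integrin chain of the leukocytes themselves. Itgal was at 15.5, 18.8 and 8.20 CPM in the vehicle and 23.9, 11.3 and 19.2 CPM in the insulin libraries. Icam1 was at 20.1, 11.3 and 10.2 CPM against 19.7 to 21.2 CPM, and Vcam1 at 24.4, 35.5 and 21.6 CPM against 32.6, 26.5 and 15.3 CPM.

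In the list of interleukin 1 and S100 receptor genes, 9 of 10 passed and 6 of the 9 were lowest in vehicle replicate 3. Il1rn, the receptor antagonist, which hepatocytes and macrophages make, was at 62.8, 68.7 and 6.53 CPM in the vehicle and 78.0, 77.0 and 30.6 CPM in the insulin libraries, a low value in the same library as the S100 genes. Il1r1, the signalling receptor, was at 63.7, 84.3 and 85.4 CPM against 58.0, 60.6 and 23.5 CPM, groups that did not overlap. Its log2 fold change was −0.72 ± 0.37 (unadjusted p = 0.0874, adjusted p = 0.852, edgeR).

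Over the 8 lists, 29 of 52 genes (55.8%) were lowest in vehicle replicate 3, beside 23.8% of all genes tested, and 3 were highest there. Since the lists were chosen with earlier results of these data known, these counts are a description. With vehicle replicate 2 set aside, an alternative added after the data were seen, 34 of 52 were lowest in vehicle replicate 3, beside 33.2% of all genes. Log2 fold changes were above 0 for 34 of 52 (65.4%), beside 48.6% of all genes tested. Their median was 0.22, and −0.017 over all genes. That median of the lists also rested on single libraries, at −0.051 without vehicle replicate 3 and 0.051 without insulin replicate 1. Summed levels were lowest in vehicle replicate 3 for 5 of the 8 lists, among them the specific granule list, nearly all of it Lcn2 (27.8 CPM against 187 to 1964 CPM), and the other neutrophil-enriched list, mostly Wfdc21 (558 CPM against 648 to 1201 CPM).

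**Figure D5:**
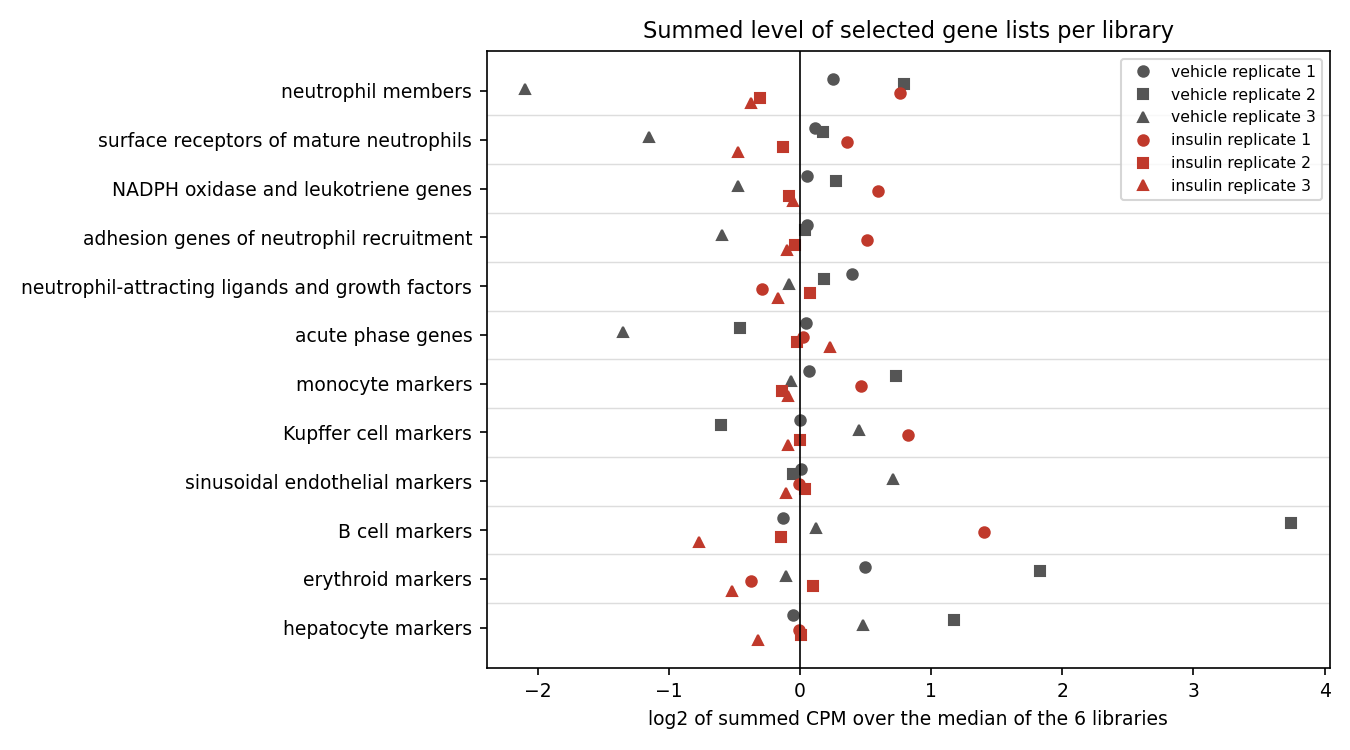
Summed CPM of selected gene lists in each library, as the log2 ratio to the median of the 6 libraries. Grey symbols are IR vehicle and red symbols IR insulin, and the shape gives the replicate. Of the lists plotted, vehicle replicate 3 (grey triangles) lies lowest for the 9 neutrophil genes, the mature receptors, the NADPH oxidase, adhesion and acute phase lists, and highest for the sinusoidal endothelial list.

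Markers of other cells that share transcripts with neutrophils did not all move with them. Monocyte markers were lowest in vehicle replicate 3 for 4 of 6 genes that passed the filter, beside 23.8% of all genes tested. The list's sum was 67.4, 107 and 61.2 CPM in the vehicle and 88.9, 58.4 and 60.4 CPM in the insulin libraries. Plac8 and Ccr2, which classical monocytes express, were at 6.62 and 1.33 CPM in vehicle replicate 3 and at 15.5 to 44.0 and 3.55 to 9.997 CPM elsewhere. F13a1 and Ly6c2 were at 0.143 and 0.334 CPM there and at 1.80 to 5.83 and 1.56 to 4.49 CPM elsewhere. Csf1r, which Kupffer cells express too, was at 47.2 CPM there, most of the list's sum, and 26.1 to 51.1 CPM elsewhere. Fcgr1 was not lowest there either, at 5.29 CPM against 3.55 to 7.38 CPM. Kupffer cell markers were highest in vehicle replicate 3 for 5 of 11 genes (23.4% of all genes tested) and lowest for 1 (23.8%). Their sums were 402, 265 and 549 CPM in the vehicle and 712, 403 and 378 CPM in the insulin libraries. The part of monocytes in the levels of the 9 genes was not tested.

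Acute phase genes, which hepatocytes transcribe in response to cytokines, were lowest in vehicle replicate 3 for 9 of 11 genes, beside 23.8% of all genes tested. With vehicle replicate 2 set aside, added after the data were seen, all 11 were lowest there, beside 33.2% of all genes. The 11 genes summed to 37184, 26306 and 14180 CPM in the vehicle and 36605, 35614 and 42308 CPM in the insulin libraries. Saa1, a serum amyloid A gene whose counts are uncertain because Saa2 is a near-identical copy, was at 4365, 252 and 217 CPM in the vehicle and 5065, 4566 and 6797 CPM in the insulin libraries. It was thus low in vehicle replicate 2 as well, where S100a8 was highest. Whether the low acute phase levels and the low neutrophil transcripts of vehicle replicate 3 are related was not tested.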

How the data were processed

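The authors deposited raw gene-level read counts, 1 column for each of 6 libraries, without scaling or pooling. By the study's methods and the submitters' processing notes, libraries were made with the NEBNext Ultra kit and aligned with Bowtie2 (version 2.2.3) to mm10. The counting program, its annotation and its use of strand are not given in the sources used here. Of 54532 Ensembl identifiers, 54495 were found in GENCODE M21 (GRCm38), which gave coordinates, transcript length and GC content.

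The groups were compared with the edgeR (4.0.16, R 4.3.3) quasi-likelihood F test with TMM scaling and filterByExpr (minimum count 10, minimum total 15), without covariates. P values were adjusted by Benjamini-Hochberg over 13377 genes. The script was tested on simulated counts. Log2 CPM used a prior count of 2. The biological coefficient of variation was 0.357, a common value over genes. It holds all spread between the 3 libraries of a group beyond counting error, and the part of the mice in it was not tested. Counting error adds to that spread and is largest where counts are few. Intervals of counts and of their ratios come from exact methods and cover counting error only. They take reads as independent, which reads without molecular identifiers need not be, so they may be too narrow. Libraries were assigned to groups and numbered from the sample labels.

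The 9 genes and the gene lists were chosen with earlier results of these data known. By rule, the text names the 9 genes, the 3 most abundant genes of each other neutrophil list and any past the study's criteria, the 2 most abundant genes of each marker list, and the 8 genes most alike in log2 CPM (mean of at least 1 CPM). Of the last, 1 is not reported here. Other genes named were chosen after their values were seen. Alternatives were RLE and upper-quartile size factors, no filter, DESeq2 1.42.0, limma (3.58.1) voom with sample weights, a replicate block, a GC offset (loess, span 0.5), a prior count of 0.5, and each library left out.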

Additional observations from a re-analysis of the deposited data

How the results depend on the processing

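The number of genes with an adjusted p under 0.05 was 0 in edgeR and in all alternatives, DESeq2 and voom included, with 99 to 1349 genes at an unadjusted p under 0.05. Genes past the study's criteria numbered 383, and 742 without the filter, 213 with voom and 99 to 1349 with 1 library left out (1349 without vehicle replicate 1, 888 without vehicle replicate 3, and 99, 143 and 120 without insulin replicates 1, 2 and 3). Genes of the 8 lists of neutrophil biology past the criteria numbered 2 of 52, beside 383 of 13377 genes tested. Without the filter they numbered 6 of 80, beside 742 of 23040. Upper-quartile factors, voom and the GC offset each gave 1 of 52, beside 349, 213 and 473 of 13377. With 1 library left out they numbered 0 to 12 of 52 to 55, beside 0.727 to 9.81% of all genes tested. The median vehicle range of the 8 fitted neutrophil genes, 3.28, ran from 0.706 (without vehicle replicate 3) to 3.06 with 1 vehicle library left out, and was 3.76 at a prior count of 0.5. Their median log2 fold change, 0.44, ran from −0.21 to 0.91 over the fits with 1 library left out, and for S100a8 the estimate was −0.34 in edgeR, 0.77 with voom, 0.56 with the replicate block, 0.68 with the block and the GC offset, and 0.87 without vehicle replicate 2. Il1b was −0.21, and 0.022 without vehicle replicate 1.

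Deviations from the group mean had r of −0.039, 0.069 and 0.017 between libraries of the same replicate number. Between libraries of different numbers r was −0.110 to 0.089. With 3 libraries per group these values cannot tell whether the numbers pair the mice. With a replicate block, 321 of 13377 genes tested met the criteria, as did 3 of the 52 genes of the 8 lists. These were Itgb2, Rac2 and Tnf, while Ptafr and Il1rap no longer did (unadjusted p 0.0873 and 0.0738, adjusted p 0.901, edgeR), and the median log2 fold change of the 8 genes was 0.79. With the block and the GC offset together the values were 335, 3 (Il1rn, Rac2 and Tnf) and 0.90. Single counts in vehicle replicate 3 limit Mmp8 and Mmp9, and the few counts of Ngp allow no comparison.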

Other observations

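Markers of the remaining cell types were summed in the same way, in vehicle replicates 1, 2 and 3 and then insulin replicates 1, 2 and 3. B cell markers, led by Igkc and Ighm, came to 7.61, 112 and 9.05 CPM and to 22.0, 7.53 and 4.88 CPM, with vehicle replicate 2 highest for all 5 genes past the filter. Erythroid markers, led by Hbb-bs and Hba-a1, came to 626, 1587 and 413 CPM and to 343, 478 and 311 CPM. Vehicle replicate 2 was highest for all 5 genes past the filter here too, as it was for 35.8% of all genes tested. Of these 5, 4 met the study's criteria, lower with insulin (smallest unadjusted p 0.0232, adjusted p 0.852 or higher, edgeR), as did 1.86% of all genes tested. Both lists were thus highest in the library in which S100a8, but not S100a9, was highest, and neither was lowest in vehicle replicate 3 for most of its genes (0 of 5 and 2 of 5).

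Sinusoidal endothelial markers, led by Clec4g and Lyve1, were highest in vehicle replicate 3 for 5 of 6 genes, beside 23.4% of all genes tested. Their sums were 150, 144 and 244 CPM and 149, 153 and 139 CPM. Hepatocyte markers, led by Alb and Cyp2e1, came to 76614, 180059 and 111035 CPM and to 79305, 79928 and 63768 CPM. Stellate cell markers, led by Dcn and Reln, came to 151, 223 and 188 CPM and to 197, 191 and 119 CPM, and bile duct markers, led by Spp1 and Sox9, to 45.3, 19.7 and 21.5 CPM and to 41.1, 23.0 and 50.7 CPM.

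T and NK cell markers, led by Gzma and Cd4, came to 3.91, 3.80 and 3.34 CPM and to 4.32, 3.29 and 2.72 CPM. Dendritic cell markers, led by Clec9a and Itgax, came to 2.69, 2.27 and 3.34 CPM and to 3.96, 1.77 and 2.63 CPM. Platelet markers, led by Itga2b and Pf4, came to 3.91, 3.31 and 4.96 CPM and to 3.96, 4.93 and 2.30 CPM, with Gp1bb at 0 throughout. Of the other granulocytes, markers of eosinophils, basophils and mast cells, led by Ccr3 and Prg2, came to at most 0.613 CPM in any library, none of the 7 genes passed the filter, and Epx, Mcpt8 and Ms4a2 were at 0 in all 6. Lists led by Cd5l and Clec4f (Kupffer cells), Csf1r and Plac8 (monocytes) and Hp and Fgb (acute phase) are described above.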
